A study of Mus musculus with 8 samples.

Results

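Pax6 binding at genes of autophagy and lysosomal sorting was described in alphaTC1 cells, a mouse line of glucagon-producing pancreatic alpha cells, by chromatin immunoprecipitation with sequencing (ChIP-seq). The genes were taken by symbol: those named Atg, Ulk, Becn, Gabarap, Map1lc3, Lamp or Vps with a number or suffix, and Wipi1, Wipi2, Rb1cc1, Ambra1, Uvrag, Sqstm1, Optn, Tfeb and Tfe3. Of the 26244 Pax6 sites in the authors' deposited table, 115 were assigned to these genes, and the assigned genes numbered 45 of 10195. Cells had received antisense oligonucleotides against Paupar, a long non-coding RNA encoded beside the Pax6 gene (Paupar KD), or oligonucleotides of a scrambled sequence (control KD). Each group had 2 Pax6 ChIP libraries and 2 input libraries; the inputs were not analysed here. All cells belong to 1 line, which comes from a tumour of a transgenic mouse, and the assay gives no RNA level for Paupar. The alpha-cell marker genes Gcg, Irx1, Irx2, Ttr and Pcsk2 each had a Pax6 site, and of 5 beta-cell genes checked 3 had a site, while Ins1 and Ins2 had none; expression was not measured.

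Autophagy encloses cytoplasm in a double membrane that then fuses with the lysosome. The ULK1 kinase complex starts the process, a lipid kinase complex built on Beclin 1 marks the membrane, ATG9 and WIPI proteins help it to grow, and a conjugation cascade attaches LC3 and GABARAP proteins to it. Vps proteins, first named for yeast mutants in vacuolar protein sorting, form the coats, tethers and ESCRT complexes that carry cargo between endosomes, Golgi and lysosome. In islet cells the lysosome also takes up surplus secretory granules. Pax6, a paired-domain and homeodomain factor, is needed for islet endocrine cells, and the comparison asked whether its occupancy of these genes differed after Paupar KD.

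A site is a window of 100 bp, and its signal is a concentration, read as a log2 value, that the authors averaged over the 2 libraries of a group. Distances and promoter labels refer to the transcript start the authors assigned, which can lie inside a gene; where the RefSeq start of the gene is meant, it is named. No spread between libraries was given for it, so the false discovery rate (FDR) of the authors' own test is the only measure of error for a change. Changes are Paupar KD minus control KD on the log2 scale. Peak summits with scores were listed for each library as well, and a summit within 250 bp of the middle of a site was counted as support. The rank percentile of a summit is its rank by score, counted from the lowest, as a percentage of the summits of the same library. Tied summits share their mean rank. These ranks describe how a site stood within 1 library and do not measure a change.

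The windows at 4 promoters are shown because they hold the 2 strongest sites (Wipi2 and Atg13) and the strongest sites of 2 further genes of the first steps and of fusion (Atg14 and Vps18). They were read from the RefSeq promoter table (GRCm38.p6, the assembly of mm10), on the strand of each gene, and none holds any of the letters searched for, so none is in capitals.
Wipi2, chr5:142629392-142629491, plus strand: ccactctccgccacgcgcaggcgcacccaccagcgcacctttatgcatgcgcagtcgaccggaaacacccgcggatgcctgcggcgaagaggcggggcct
Atg13, chr2:91710585-91710684, minus strand: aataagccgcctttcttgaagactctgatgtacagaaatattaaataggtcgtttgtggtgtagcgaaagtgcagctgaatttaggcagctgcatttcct
Atg14, chr14:47568453-47568552, minus strand: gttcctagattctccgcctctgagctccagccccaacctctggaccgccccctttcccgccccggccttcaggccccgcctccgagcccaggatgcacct
Vps18, chr2:119288614-119288713, plus strand: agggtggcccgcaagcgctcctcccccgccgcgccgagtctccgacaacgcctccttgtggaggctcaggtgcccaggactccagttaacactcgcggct
Their content of G and C was 70.0% at Wipi2, 41.0% at Atg13 and 69.0% at both Atg14 and Vps18. The Atg13 window also borders the start of Harbi1, which is transcribed the other way.

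After Paupar KD, 6 of the 115 sites were higher and 2 were lower at an FDR below 0.05 by the authors' deposited table. These 8 calls fell on 8 genes. That is 5.22% higher and 1.74% lower, beside 3.26% higher and 0.846% lower over all 26244 sites, or 6.96% beside 4.1% for both directions together. The higher sites were at Vps8, Ambra1, Vps4a, Vps35l, Vps50 and Vps13d, and the lower ones at Wipi2 and Ulk1. The median change was 0.07 over the 115 sites and -0.03 over all sites per the authors' deposited table, with 63 of the 115 above 0 and 51 below. Of the 115, 24 had an unadjusted p below 0.05 in that table, 17 higher and 7 lower. The same count was not made over all sites, so it does not set the 115 apart. Among the 115, 4 sites had an FDR of 1 with a smaller p and lay outside the authors' adjustment; no call was possible there.

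**Figure D1:**
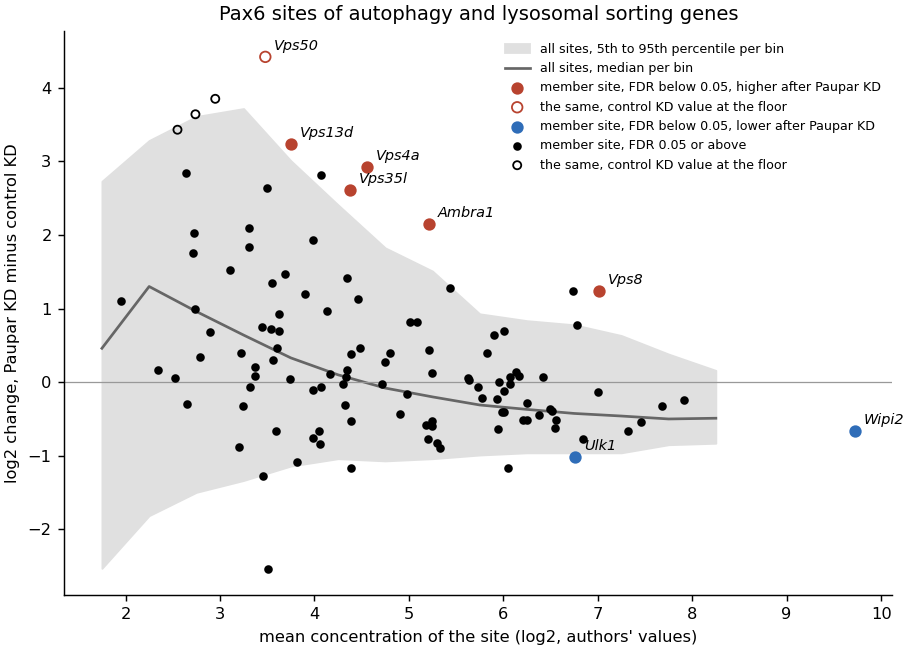
Log2 change of each of the 115 sites (Paupar KD minus control KD) against its mean log2 concentration; the grey band and line give the 5th to 95th percentile and the median of all sites in bins of 0.5 that hold at least 50 sites. The 6 higher sites and Ulk1 lie at or beyond the edge of the band, Wipi2 lies at a stronger signal than any bin drawn, and open circles mark the 4 sites whose control KD value is at the floor.

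The strongest site of the group lay at the promoter of Wipi2, whose protein binds the lipid mark of the growing membrane and brings in the conjugation machinery. The window ended 51 bp before the start that the authors assigned. It had a concentration of 9.34 in Paupar KD and 10.01 in control KD, a change of -0.67 (FDR 0.0122) by the authors' deposited table, and ranked 3 of all 26244 sites by mean concentration. Its summit scored 44.5 and 161 in Paupar KD replicates 1 and 2, against 234 and 129 in control KD replicates 1 and 2. Within their own lists these ranked at the 91.7 and 99.2 percentile in Paupar KD and at the 99.4 and 99.1 percentile in control KD. Paupar KD replicate 1 therefore held the lowest rank of the 4. Among the 101 sites of highest mean concentration, ties included, the median change was -0.51 and the lower quartile -0.67, with 24 lower and 4 higher per the authors' deposited table.

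Phagophore growth is also served by Atg9a, which encodes a lipid scramblase carried on small vesicles, and by its paralogue Atg9b. The Atg9a promoter had 5.67 in Paupar KD and 5.87 in control KD (FDR 0.848) by the authors' deposited table. The 3 sites of Atg9b had changes of -0.40, -0.82 and -0.07 per the authors' deposited table, with FDRs of 0.363 to 0.960. One of them lay in exon 25 of 26 of the neighbouring gene Nos3. All 5 sites of the Atg9 and Wipi genes had a change below 0, and 1 of them, Wipi2, passed the FDR. A change below 0 was common at strong sites. It was found at 77.1% of all sites in the top quartile of mean concentration and at 64.3% of all promoter sites.

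Ulk1 encodes the kinase that starts autophagosome formation. A site annotated as promoter, 1.62 kb from the assigned start (chromosome 5, 110808336 to 110808435, mm10) had 6.16 in Paupar KD and 7.19 in control KD, a change of -1.02 (FDR 0.0360) by the authors' deposited table. A summit was listed in Paupar KD replicate 2 (68.0 percentile) and in control KD replicates 1 and 2 (71.8 and 76.7 percentile), and none in Paupar KD replicate 1. The second Ulk1 site, 21.6 kb from the RefSeq start, had 3.40 in Paupar KD and 3.02 in control KD (FDR 0.902) per the authors' deposited table. Atg13 and Atg101, which encode the adaptor subunits that hold the complex together, each had a promoter site. Atg13 had 7.78 in Paupar KD and 8.02 in control KD (FDR 0.643) by the authors' deposited table, with a summit in all 4 libraries at the 94.0 to 96.7 percentile. Atg101 had 6.30 in Paupar KD and 6.67 in control KD (FDR 0.625) per the authors' deposited table. No site was listed for Ulk2 or Rb1cc1.

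Ulk4, which encodes a relative of ULK1 outside that complex, had 14 sites and no call. They lay between 121062158 and 121286289 on chromosome 9. Its strongest site had 6.20 in Paupar KD and 6.82 in control KD (FDR 0.328) by the authors' deposited table. It lay 336 bp before the assigned start, 8.58 kb inside the RefSeq gene, where RefSeq also lists an Ulk4 promoter. The window lies in the promoter of the predicted gene Gm34655 as well. A site just before the outer RefSeq start, annotated as distal intergenic, had 5.95 in both groups (FDR 0.999) per the authors' deposited table. All 4 libraries had a summit there. The lowest changes of the gene were -1.17 (5.35 in Paupar KD and 6.52 in control KD, FDR 0.0817) and -1.08 (FDR 0.521) per the authors' deposited table. The site with the change of -1.08 lay 959 bp from one with a change of 1.28 (FDR 0.0838) by the authors' deposited table. Of the 14 sites, 7 were above 0 and 6 below.

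The Beclin 1 group held 1 call, at Ambra1, which encodes a scaffold that ties the ULK1 and Beclin 1 complexes together. The site, in intron 12 of 18 (chromosome 2, 91870938 to 91871037, mm10), had 5.92 in Paupar KD and 3.77 in control KD, a change of 2.15 (FDR 0.00685) by the authors' deposited table. It had a summit in both Paupar KD libraries, at the 88.6 and 72.7 percentile, and in neither control KD library. A second site in the same intron, 102 kb from the RefSeq start where the called one is 141 kb from it, was listed at 3.85 in Paupar KD and at the floor in control KD, -0.01 (FDR 0.146) per the authors' deposited table. At the floor the size of a change is not measured, so none is given.

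Becn1 and Becn2 encode the core subunit and its paralogue. The site assigned to Becn1, 5.64 kb upstream, had 4.66 in Paupar KD and 2.73 in control KD (FDR 0.179) by the authors' deposited table. The one assigned to Becn2 lay 118 kb away in an intron of Pld5, with 3.46 in Paupar KD and 0.61 in control KD (change 2.84, FDR 0.226) per the authors' deposited table. Paupar KD replicate 1 was the sole library with a summit at the Becn1 and Becn2 sites, at the 63.5 and 12.6 percentile. The Atg14 promoter, of the subunit that directs Beclin 1 to autophagy, had 4.10 in Paupar KD and 4.63 in control KD (FDR 0.745) by the authors' deposited table, with no summit in any library. Uvrag, a Beclin 1 partner in endosome and autophagosome maturation, had 9 sites and no call. Its strongest, at the promoter, had 6.14 in Paupar KD and 6.59 in control KD (FDR 0.542) per the authors' deposited table. In intron 13 of 14, 3 Uvrag sites within 3.8 kb had changes of 0.09 to 1.53 by the authors' deposited table. Over the group, 11 of 14 sites had a change above 0, with a median of 0.67 per the authors' deposited table. Over all sites 48.5% were above 0, with a median of -0.03. Uvrag alone held 9 of the 14 sites and 7 of the 11.

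Of 11 conjugation genes looked for, 4 had a site, 6 sites in all and no call. The strongest was the promoter of Atg7, which encodes the activating enzyme of the cascade, with 5.65 in Paupar KD and 5.60 in control KD (FDR 0.975) per the authors' deposited table. Atg10, which encodes the enzyme that passes on ATG12, had an intron site at 3.40 in Paupar KD and 1.37 in control KD (FDR 0.405) by the authors' deposited table. Its summit was in Paupar KD replicate 1 alone, at the 32.4 percentile. The promoter site of Atg4a, a protease gene for LC3 processing, had 3.22 in Paupar KD and 3.88 in control KD (FDR 0.767) per the authors' deposited table. Atg3, Atg5, Atg12 and Atg16l1 were among the 7 with no listed site.

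Among the genes of the proteins so conjugated, Gabarapl2 had the strongest site, 662 bp upstream, with 6.93 in Paupar KD and 7.06 in control KD (FDR 0.858) by the authors' deposited table. Its summit lay between the 90.9 and 93.4 percentile in all 4 libraries. The Gabarap promoter had 4.81 in Paupar KD and 5.71 in control KD (FDR 0.300) per the authors' deposited table, and Paupar KD replicate 1 alone had a summit there. Map1lc3b had 2 sites with changes of -0.28 and 0.82 (FDRs 0.768 and 0.414) by the authors' deposited table. No site was listed for the receptor genes Sqstm1 and Optn.

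Tfeb and Tfe3 encode transcription factors of lysosomal genes. The site assigned to Tfeb was annotated as distal intergenic, past the far end of the gene and 56.5 kb from its RefSeq start, and had 4.37 in Paupar KD and 4.29 in control KD (FDR 0.970) per the authors' deposited table. The Tfe3 promoter had 4.22 in Paupar KD and 4.12 in control KD (FDR 0.960) by the authors' deposited table. For both, Paupar KD replicate 2 was the sole library with a summit. Lamp2, which encodes a lysosomal membrane protein, had 2 sites with changes of 0.28 and 1.35 (FDRs 0.866 and 0.433) per the authors' deposited table. No site was listed for Lamp1.

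**Figure D2:**
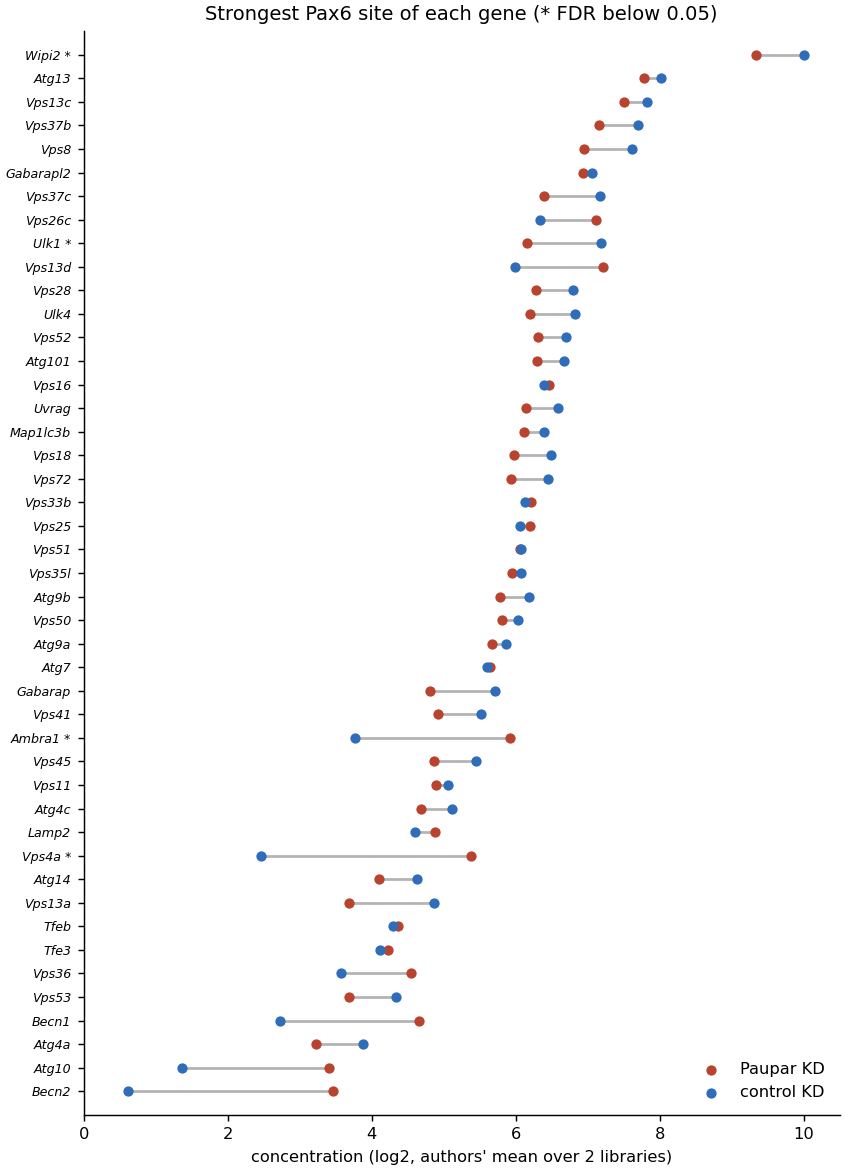
Log2 concentration of the strongest site of each of the 45 genes in Paupar KD (red) and control KD (blue), the authors' means over 2 libraries; an asterisk marks an FDR below 0.05. Wipi2 stands apart from Atg13 and the rest. At this site 30 of the 45 genes (66.7%) are lower in Paupar KD, beside 62.8% of all 10195 genes.

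The genes of the CORVET and HOPS tethers and their relative Vps33b held 1 call, at Vps8, which encodes a subunit of the CORVET complex of early endosomes. The site lay 203 kb from the RefSeq start, inside the 222 kb gene (chromosome 16, 21626021 to 21626120, mm10). The authors annotated it as promoter, 1.51 kb before a start inside the gene, and it had 7.50 in Paupar KD and 6.26 in control KD, a change of 1.24 (FDR 0.00371) by the authors' deposited table. It had a summit in all 4 libraries, with scores of 177 and 169 in Paupar KD, the highest of any of the 115 sites in those libraries, and of 85.2 and 28.3 in control KD. The ranks were 99.3 and 99.3 percentile in Paupar KD, against 96.4 and 87.4 percentile in control KD. A second site, 1420 bp away, 204 kb from the RefSeq start and 91 bp before the same assigned start, had the opposite sign, with 6.95 in Paupar KD and 7.62 in control KD (change -0.67, FDR 0.116) per the authors' deposited table. The difference between the changes at these neighbouring sites was not tested.

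The other 5 of these genes had no call. Vps11, Vps16 and Vps18 encode core subunits shared by CORVET and the late-endosomal HOPS complex, and Vps41 encodes one of HOPS alone. Vps16 had its strongest site at the start, with 6.46 in Paupar KD and 6.39 in control KD (FDR 0.944) by the authors' deposited table; the same window lies in the promoter of Pced1a. Vps33b, whose protein works outside HOPS, had 6.21 in Paupar KD and 6.13 in control KD at its start (FDR 0.943) per the authors' deposited table. Vps18 had 5.97 in Paupar KD and 6.49 in control KD at its promoter (FDR 0.474) by the authors' deposited table. Sites listed at the floor in control KD, -0.01, were one assigned to Vps18 and one assigned to Vps41. The Vps18 one was annotated as 3′ UTR but lay outside the RefSeq gene, at 3.42 in Paupar KD (FDR 1.0) by the authors' deposited table. The Vps41 one lay in exon 8 of 29, at 3.63 in Paupar KD (FDR 0.126) per the authors' deposited table. Each had a summit in 1 Paupar KD library alone.

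Of the ESCRT genes, the called one was Vps4a, which encodes the ATPase that takes ESCRT filaments apart. The site assigned to it lay 28.5 kb upstream, in intron 5 of 6 of Sntb2 (chromosome 8, 107002642 to 107002741, mm10). It had 5.38 in Paupar KD and 2.46 in control KD, a change of 2.92 (FDR 0.00233) by the authors' deposited table. A summit was listed in both Paupar KD libraries, at the 82.1 and 76.5 percentile, and in neither control KD library. Vps37b, of the cargo-binding ESCRT-I complex, had the strongest ESCRT site, in intron 3 of 3, with 7.16 in Paupar KD and 7.70 in control KD (FDR 0.220) per the authors' deposited table. All 4 Vps37b sites were below 0, from -0.84 to -0.40 per the authors' deposited table, with no call. Over all sites 51.1% were below 0, and in the top quartile of mean concentration 77.1%. Its relative Vps37c had 3 sites with changes of -0.77, 0.69 and 1.42 (FDRs 0.152 to 0.732) by the authors' deposited table. The Vps28 promoter, also of ESCRT-I, had 6.28 in Paupar KD and 6.79 in control KD (FDR 0.393), and the Vps25 promoter, of ESCRT-II, had 6.20 in Paupar KD and 6.06 in control KD (FDR 0.888) per the authors' deposited table.

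Vps50 encodes the subunit that sets the endosomal EARP tether apart from the Golgi tether GARP. Of its 6 sites, one in intron 12 of 27 (chromosome 6, 3539586 to 3539685, mm10) was listed at 4.42 in Paupar KD and at the floor in control KD, -0.01 (FDR 0.0354) by the authors' deposited table. Its summit was in Paupar KD replicate 1 alone, at the 66.4 percentile. The Vps50 promoter had 5.81 in Paupar KD and 6.03 in control KD (FDR 0.822) per the authors' deposited table, with a summit in all 4 libraries. Vps51, Vps52 and Vps53, of both tethers, had no call. The Vps52 start was the strongest, with 6.31 in Paupar KD and 6.70 in control KD (FDR 0.610) by the authors' deposited table.

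The retromer genes Vps26a, Vps26b, Vps29 and Vps35 had no listed site. Their relatives Vps35l and Vps26c, which encode subunits of the retriever complex of endosomal recycling, had 11 and 2. In intron 12 of 30 of Vps35l, a site (chromosome 7, 118778944 to 118779043, mm10) had 5.16 in Paupar KD and 2.55 in control KD, a change of 2.61 (FDR 0.0134) per the authors' deposited table. Summits were listed in both Paupar KD libraries, at the 82.8 and 67.8 percentile, and in neither control KD library. A site 797 bp away in the same intron had 2.69 in Paupar KD and 3.57 in control KD (FDR 0.725) by the authors' deposited table. The lowest change in the gene was -1.28, at a promoter-annotated site with 2.68 in Paupar KD and 3.96 in control KD (FDR 0.548) per the authors' deposited table. The strongest Vps26c site, 17.8 kb upstream, had 7.12 in Paupar KD and 6.34 in control KD (FDR 0.139) by the authors' deposited table.

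The VPS13 proteins are bridges that move lipids between membranes. Vps13d had more sites than any other gene of the group, 15, and 1 call, at a distal site 12.7 kb before the assigned start (chromosome 4, 145207709 to 145207808, mm10). It had 4.60 in Paupar KD and 1.37 in control KD, a change of 3.23 (FDR 0.0437) per the authors' deposited table, and its single summit was in Paupar KD replicate 1 (81.8 percentile). In intron 67 of 69, 7 sites lay within 15.4 kb, 5 of them with a change above 0 and 2 below by the authors' deposited table. The strongest there had 7.22 in Paupar KD and 5.99 in control KD (change 1.24, FDR 0.312) by the authors' deposited table. A site 1212 bp from it had 1.75 in Paupar KD and 4.28 in control KD, a change of -2.54 and the lowest of all 115 (FDR 0.122) per the authors' deposited table; it had a summit in both control KD libraries and in neither Paupar KD library. Others in that intron had changes of 2.81 (FDR 0.0509) and 2.64 (FDR 0.109) by the authors' deposited table. The site with 2.81 had a summit in both Paupar KD libraries, and the site with 2.64 in Paupar KD replicate 1 alone.

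Vps13c had 1 site, in intron 73 of 84, which was the third strongest of the 115 with 7.51 in Paupar KD and 7.83 in control KD (FDR 0.529) per the authors' deposited table. Its summit ranked at the 97.8 percentile or above in all 4 libraries. The site assigned to Vps13a lay in an exon of Gna14, with 3.69 in Paupar KD and 4.86 in control KD (change -1.16, FDR 0.332) by the authors' deposited table. The remaining genes were Vps45, of membrane fusion, and Vps72, which encodes a subunit of chromatin remodelling complexes despite its name. The Vps72 start had 5.93 in Paupar KD and 6.45 in control KD (FDR 0.470) per the authors' deposited table.

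**Figure D3:**
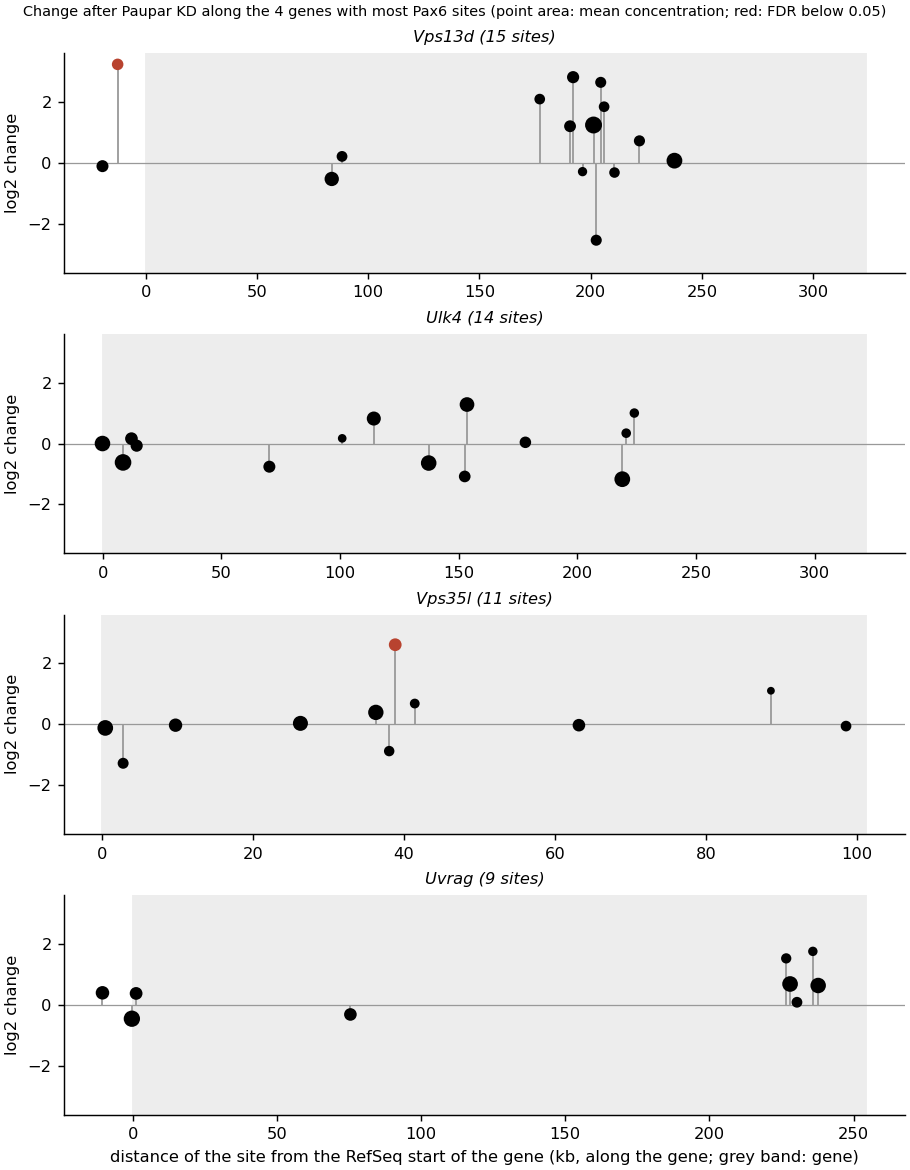
Log2 change (Paupar KD minus control KD) of each site of Vps13d, Ulk4, Vps35l and Uvrag against its distance from the RefSeq start of the gene in kb; point area grows with mean concentration, the grey band is the gene, and red marks an FDR below 0.05. Each of the 4 genes has a pair of neighbouring sites within 2 kb that point opposite ways, and the 2 called sites are the highest change of Vps13d and of Vps35l.

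Of 14 pairs of neighbouring member sites within 2 kb, 7 had opposite signs, beside 47.2% of 2684 such pairs over all sites by the authors' deposited table. Sites were unevenly shared out. Vps13d, Ulk4, Vps35l and Uvrag held 49 of the 115, while 26 genes had 1 site each. Vps13d and Ulk4 are also long genes (324 and 322 kb in RefSeq), with 4.01 and 4.04 sites per 100 kb inside the gene, against 10.9 in Vps35l (101 kb). Without these 4 genes, 4 sites were higher and 2 lower of 66, beside 3.26% higher and 0.846% lower over all 26244 sites. The median change of the 66 was 0.05, beside -0.03 over all sites, per the authors' deposited table.

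By position, 34.8% of the 115 sites were in promoters and 49.6% in introns, beside 27.5% and 36.8% of all sites. Distal intergenic sequence held 6.96%, beside 28.9%. Of the 15, 14, 11 and 9 sites of Vps13d, Ulk4, Vps35l and Uvrag, only 1, 2, 4 and 2 were in promoters. Most sites of these 4 genes therefore lay outside promoters, and they weigh on the intron share and on the values outside promoters. Of the 66 sites of the other 41 genes, 31 were in promoters. The 40 promoter sites had a median change of -0.22 with 1 higher and 2 lower (2.5% and 5.0%), beside -0.23 with 1.57% higher and 1.39% lower over all promoter sites by the authors' deposited table. The other 75 had a median of 0.40 with 5 higher and 0 lower (6.67% and 0%), beside 0.08 with 3.9% higher and 0.641% lower over all sites outside promoters per the authors' deposited table. Signal differed with position: the median mean concentration of the members was 5.85 in promoters and 4.07 elsewhere per the authors' deposited table. The median change in the top quartile of mean concentration was -0.23 at 39 member sites and -0.36 over all sites, and in the lowest it was 0.70 at 32 member sites and 0.72 over all sites by the authors' deposited table. At the strongest site of each of the 45 genes the median change was -0.28, beside -0.23 over the strongest sites of all 10195 genes per the authors' deposited table.

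The summit lists gave the only values per library. Of the 115 sites, 64 and 77 had a summit in Paupar KD replicates 1 and 2, against 54 and 47 in control KD replicates 1 and 2. The groups did not overlap, with means of 70.5 ± 9.19 in Paupar KD and 50.5 ± 4.95 in control KD (SD, n = 2 each; two-sided exact permutation p = 0.33, the lowest p this design can reach). The labels do not say whether the 2 libraries of a group came from separate cultures, so this spread may be technical. The ratio of 1.40 stood beside 1.39 over all sites. The Paupar KD lists were also longer, with 15611 and 17942 summits, against 14311 and 9983 in control KD. With lists cut to the same length, 9983 summits, the counts were 46 and 48 in Paupar KD and 44 and 47 in control KD. All 4 libraries had a summit at 27 of the 115 sites (23.5%), beside 5247 of all 26244 sites, and none had one at 4.

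Support by summits went with the calls, which came from the same libraries. Of the 6 higher sites, Ambra1, Vps4a and Vps35l had summits in each Paupar KD library but no control KD one, Vps13d and Vps50 had one in Paupar KD replicate 1 alone, and Vps8 had one in each library. Over all sites supported by Paupar KD replicate 1 alone, 6.05% were higher, and over those supported by replicate 2 alone, 0.761%. Their part in the calls at Vps13d and Vps50 was not tested.

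**Figure D4:**
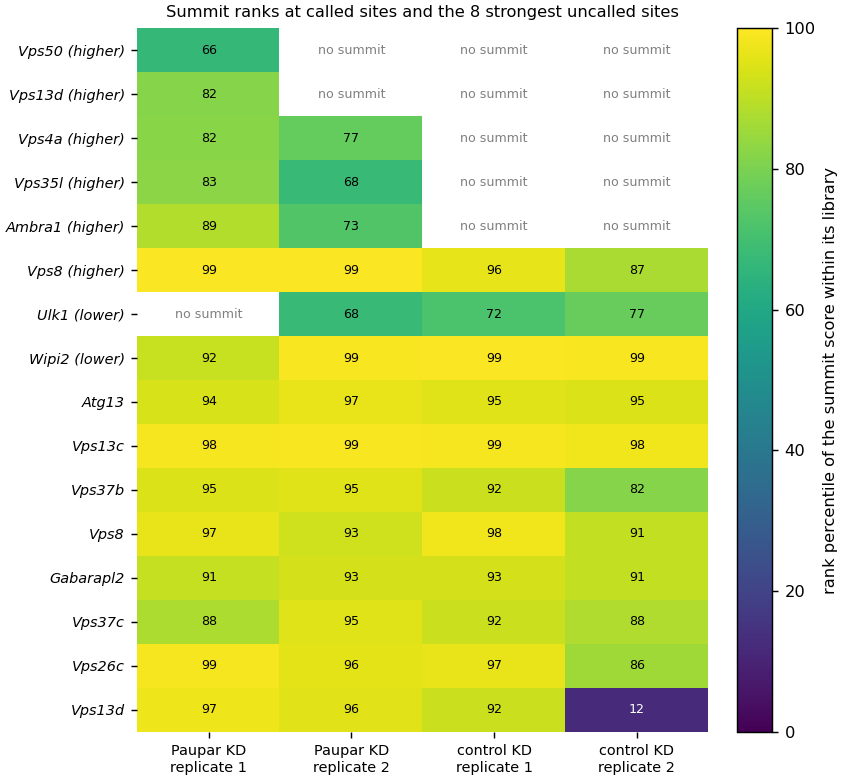
Rank percentile of the summit score within its own library (0 to 100, colour and number) at the 8 called sites and the 8 strongest uncalled sites, for 2 Paupar KD and 2 control KD libraries; white cells have no summit within 250 bp. Among the higher sites only Vps8 has summits in control KD, and the Ulk1 site has none in Paupar KD replicate 1.

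Further genes of the pathway, 124 in a list that leaves out the symbols above, were looked up in the same table. Sites were listed for 75 of them, 167 in all, of which 2 were higher (1.2%) and 1 lower (0.599%), with a median change of -0.08 by the authors' deposited table. Higher were an intron site of Snx6, a sorting nexin gene, with 4.92 in Paupar KD and 1.58 in control KD (FDR 0.00802), and a site 18.4 kb from Tgfbrap1, which encodes a CORVET subunit, at 4.41 in Paupar KD and at the floor in control KD (-0.01, FDR 0.0307) per the authors' deposited table. Lower was the start of Atp6v0e2, of the lysosomal proton pump, with 5.92 in Paupar KD and 7.04 in control KD (FDR 0.0183) by the authors' deposited table. The 26 sites of lysosomal enzyme and membrane genes had no call; the strongest, at the Ctsf promoter of a cathepsin gene, had 7.31 in Paupar KD and 7.96 in control KD (FDR 0.128) per the authors' deposited table. The 38 sites of the mTORC1 and nutrient-sensing genes had no call either. With 4.1% called over all sites, an absence of calls among 26 or 38 sites says little. The median change of the 38 was -0.36, beside -0.03 over all sites, by the authors' deposited table. The strongest of these was at Rraga, a Rag GTPase gene (6.89 in Paupar KD and 6.90 in control KD, FDR 0.985) per the authors' deposited table. Among receptor and fusion genes the strongest was the promoter of the autophagy receptor gene Nbr1, with 7.36 in Paupar KD and 7.53 in control KD (FDR 0.812) by the authors' deposited table. In the remaining roles the strongest were Vmp1 (5.24 in Paupar KD and 6.35 in control KD, FDR 0.108), Chmp4b (6.95 in Paupar KD and 7.35 in control KD, FDR 0.512) and Atp6v1g2 (6.53 in Paupar KD and 6.96 in control KD, FDR 0.534) per the authors' deposited table.

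Short motifs were searched by exact letters on both strands: TTCACGC and its shorter part TCACGC, from the core bound by the Pax6 paired domain, TAATTA, a homeodomain core, and CACGTG and the longer TCACGTG, the E-box core bound by TFEB and TFE3. Of the 115 windows, 9 lay whole inside a RefSeq promoter window and could be read, those of Atg13, Atg14, Tfe3, Ulk4, Vps16, Vps18, Vps50, Vps52 and Wipi2. Neither paired-domain string and no TAATTA was in any of the 9, beside 1.06% (TTCACGC), 3.75% (TCACGC) and 0.733% (TAATTA) of 1227 windows read in this way over all sites. The E-box core was in 1 of the 9, at Vps50, beside 4.81% of the 1227. Over the RefSeq promoters of 300 bp, TCACGTG was in 4 of the 45 windows of 36 member genes (Atg7, Atg14, Vps16 and Vps50), or 8.89%, beside 3.76% of 32817 promoters. The shorter CACGTG was in 8.89% of the 45, beside 7.15%, TCACGC in 6.67%, beside 6.66%, TAATTA in 2.22%, beside 5.3%, and TTCACGC in 0%, beside 1.26%. At Vps16 the string ended 11 bp before the RefSeq start and 8 bp from the Pax6 window. At Vps50 it began inside the Pax6 window and ran past its end. At Atg14 it overlapped the start, 18 bp from the Pax6 window, and at Atg7 it lay 27.0 kb from the nearest site. These matches describe letters and are not binding sites.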

How the data were processed

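Pax6 ChIP-seq of alphaTC1 cells was analysed from processed files, on build mm10. The submitters' processing notes name Bowtie2, MACS2, ChIPseeker and DiffBind but no version. Settings, normalization between libraries and use of the inputs were not stated. The authors' deposited table holds log2 concentrations as group means, a log2 fold (control KD minus Paupar KD, sign turned here), p-values and FDRs; the test behind them is not given. The log2 scale was read from the values. Summit scores in the deposited lists are read as −log10 of q from their lowest value of 2.0. The summit list of one control KD library is numbered otherwise than the title of its sample, which was followed (replicate 2). Read depth is unknown and counting intervals were left out. Sites were not refitted, because the table holds group means. Concentrations at or below 0 were called the floor.

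Counts, medians and summit matches were computed with Python 3.11.15, pandas 2.3.3 and scipy 1.17.1, and the matching was tested on simulated data. The gene ID of each of the 45 genes matched RefSeq (GRCm38.p6). The members and lists were chosen with earlier results of these data known. Named were every called site, the 10 strongest, the strongest of each role, those at the floor and the 5 highest and 5 lowest changes above it; further genes and sites were named to describe their roles. Alternatives were the FDR threshold, summit support and window, distance to the start, floor sites, 1 site per gene, summit score, list length, left-out libraries and a replicate block.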

Additional observations from a re-analysis of the deposited data

How the results depend on the processing

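At an FDR below 0.01, 3 sites were higher (2.61%, at Vps8, Ambra1 and Vps4a) and 0 lower, beside 1.39% and 0.137% of all sites. Of the 167 sites of the further pathway genes, 1 was higher (0.599%) and 0 lower. Below 0.10, 8 of the 115 sites were higher (6.96%) and 3 lower (2.61%), beside 4.99% and 1.8% of all sites. The further pathway genes had 6 higher (3.59%) and 2 lower (1.2%) at that threshold. At an FDR below 0.05, 1 of the 65 member sites within 10 kb of the assigned start was higher (Vps8, 1.54%, beside 2.1% of all sites there). With 1 site per gene, 2 were higher (Ambra1 and Vps4a, 4.44%, beside 3.0% over all genes). In either, 2 were lower (3.08%, beside 1.07%, and 4.44%, beside 1.72%). The median change was -0.095 with summits in at least 2 libraries, 0.05 without floor sites, -0.07 within 10 kb and -0.28 with 1 site per gene, so its sign depended on which sites entered. It was 0.07 without the Vps genes. The difference in sites with a summit per library, 20, lay between 13.5 and 26.5 without 1 library in turn. Each such step leaves 1 library in a group, so only the size is given. The difference was 1.5 with lists of equal length. With the replicate block, the pair differences were 10 and 30, a mean of 20 (exact sign-flip p = 0.50, the smallest possible); the labels do not say that the numbers pair cultures. The calls rest on group means, so none could be refitted without a library.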
